A study of Mus musculus with 9 samples.

Results

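A set of 110 genes was selected from 46078 identifiers because their mean level was flat over the first day of in vitro differentiation of mouse spermatogonial stem cells and higher at the end of the second. Levels are in CPM, the count of a gene divided by the total of its library and multiplied by 1000000. A gene entered when its mean at 48 h was at least 5 CPM, its 24 h mean lay between 0.67 and 1.5 times its 0 h mean, and its 48 h mean was at least 1.8 times its 24 h mean. Id1 to Id4, Fmod and genes named Hox, Col or Hist were left out by name, which removed 1 gene, Id3. The rule used the means of all 9 libraries, so the levels of these genes and the differences between the times are given as a description. No p-value is given for a single gene of the set, and counts of calls stand beside the share over all genes. By GENCODE release M21 the 110 genes comprised 94 protein-coding genes, 6 lincRNAs, 3 misc_RNA genes, 5 pseudogenes, 1 processed transcript and 1 identifier without an entry, ENSMUSG00000071295.

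RNA was sequenced from EGFP-SSCs, a line of wild-type spermatogonial stem cells that carry EGFP, with 3 libraries each at 0 h, 24 h and 48 h. The 0 h cells were in normal culture on mitomycin C-exposed mouse embryonic fibroblasts in medium with GDNF, basic fibroblast growth factor and epidermal growth factor. The 24 h and 48 h cells had been mixed in equal number with somatic cells from busulfan-exposed mouse testes of 3 to 7 days after birth, and cultured with BMP-4/7, retinoic acid, activin A, testosterone and FSH. For 24 h and 48 h the labels state a flow cytometric sort for EGFP. The cells are all of 1 line, and 0 h differs from the later times in medium and accompanying cells as well as in hours, which cannot be told apart. Library totals ran from 16825251 to 22201892 counts. In bulk RNA of this kind, fewer cells of a type and less RNA per cell cannot be told apart.

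2 libraries stood apart from their replicates over the selected genes. The 48 h replicate 2 library was the lowest of the 48 h libraries for 91 of the 110 genes, against 26.8% of the 11891 genes with a 48 h mean of at least 5 CPM. The 0 h replicate 1 library was the highest of the 0 h libraries for 98 of the 110. Both held together for 87 of the 110 genes and for 19.3% of the 11891. Values without these libraries are therefore given for the number of genes the rule found, for calls and for genes without overlap. They are not given for counts by name, role or chromosome.

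Spermatogonial stem cells are held undifferentiated by GDNF, and retinoic acid and BMP signals push them towards differentiating spermatogonia and meiosis. Gremlin-1, encoded by Grem1, is a secreted protein that binds BMPs and keeps them from their receptors. LEF1 is a transcription factor through which Wnt signals act on the genome, and DLK1 is a transmembrane relative of the Notch ligands from an imprinted locus. 7SK is a small nuclear RNA that holds the elongation kinase P-TEFb in an inactive complex, and Rn7sk is its gene. Most Zfp genes encode zinc finger proteins, many of which carry a KRAB domain and silence transposable elements. Cenpe, Cenpf and Knl1 encode proteins of the kinetochore, by which chromosomes attach to the spindle.

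3 of the 4 highest 48 h to 24 h ratios belonged to 7SK genes, so their RNA is shown first. Rn7sk lies at chr9:78175303-78175633, minus strand of GRCm38, Gm24447 at chr15:93234363-93234700, plus strand, and Gm26315 at chr2:7076094-7076414, minus strand. Gm24447 was 89.3% identical to Rn7sk over 317 aligned bases and Gm26315 88.1% over 311. The first 100 bases are printed from the GENCODE transcripts, with capitals where a base differs from Rn7sk.
Rn7sk: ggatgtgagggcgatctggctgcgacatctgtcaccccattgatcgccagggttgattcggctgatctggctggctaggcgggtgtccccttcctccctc
Gm24447: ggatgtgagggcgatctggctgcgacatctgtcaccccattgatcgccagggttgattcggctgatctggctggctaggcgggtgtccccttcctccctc
Gm26315: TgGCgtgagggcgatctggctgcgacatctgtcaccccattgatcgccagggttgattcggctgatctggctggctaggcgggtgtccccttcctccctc
Gm24447 had 0 differences from Rn7sk in these bases and Gm26315 had 3. Over windows of 75 bases at 97% identity, 72.8% of Rn7sk matched other genes, so reads cannot be assigned to 1 of the 3 copies with certainty.

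The 110 genes were of 2 kinds when their libraries were looked at one by one. In 26 of them all 3 libraries of 48 h lay above all 6 libraries of 0 h and 24 h. The rule used these libraries, and the share of the 11891 expressed genes with such a separation was 11.4%. The 26 were Gm26315, Gm24447, Grem1, Rn7sk, Ankrd1, B230303O12Rik, Gm42418, Lef1, B3galt1, D030028A08Rik, Cxcl1, Utf1, Mfap5, Dlk1, Vegfd, Ctla2a, Tbx3, Ccdc50, Zxdb, Arhgef39, Sash1, Zfp260, Gm28453, Mipol1, Adgrv1 and Rps12-ps24. In the other 84 the libraries of 48 h and of the earlier times overlapped. Of these, 22 had all 3 libraries of 48 h above the 24 h libraries and overlapped only with 0 h libraries, which makes 48 of the 110 without overlap between 24 h and 48 h. The remaining 62 overlapped between 24 h and 48 h. The rule chose the genes on the means of these same libraries, so the counts of 48 and 26 are a description of the set. No share over all expressed genes is given beside the 48, and nothing is read from it.

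**Figure D1:**
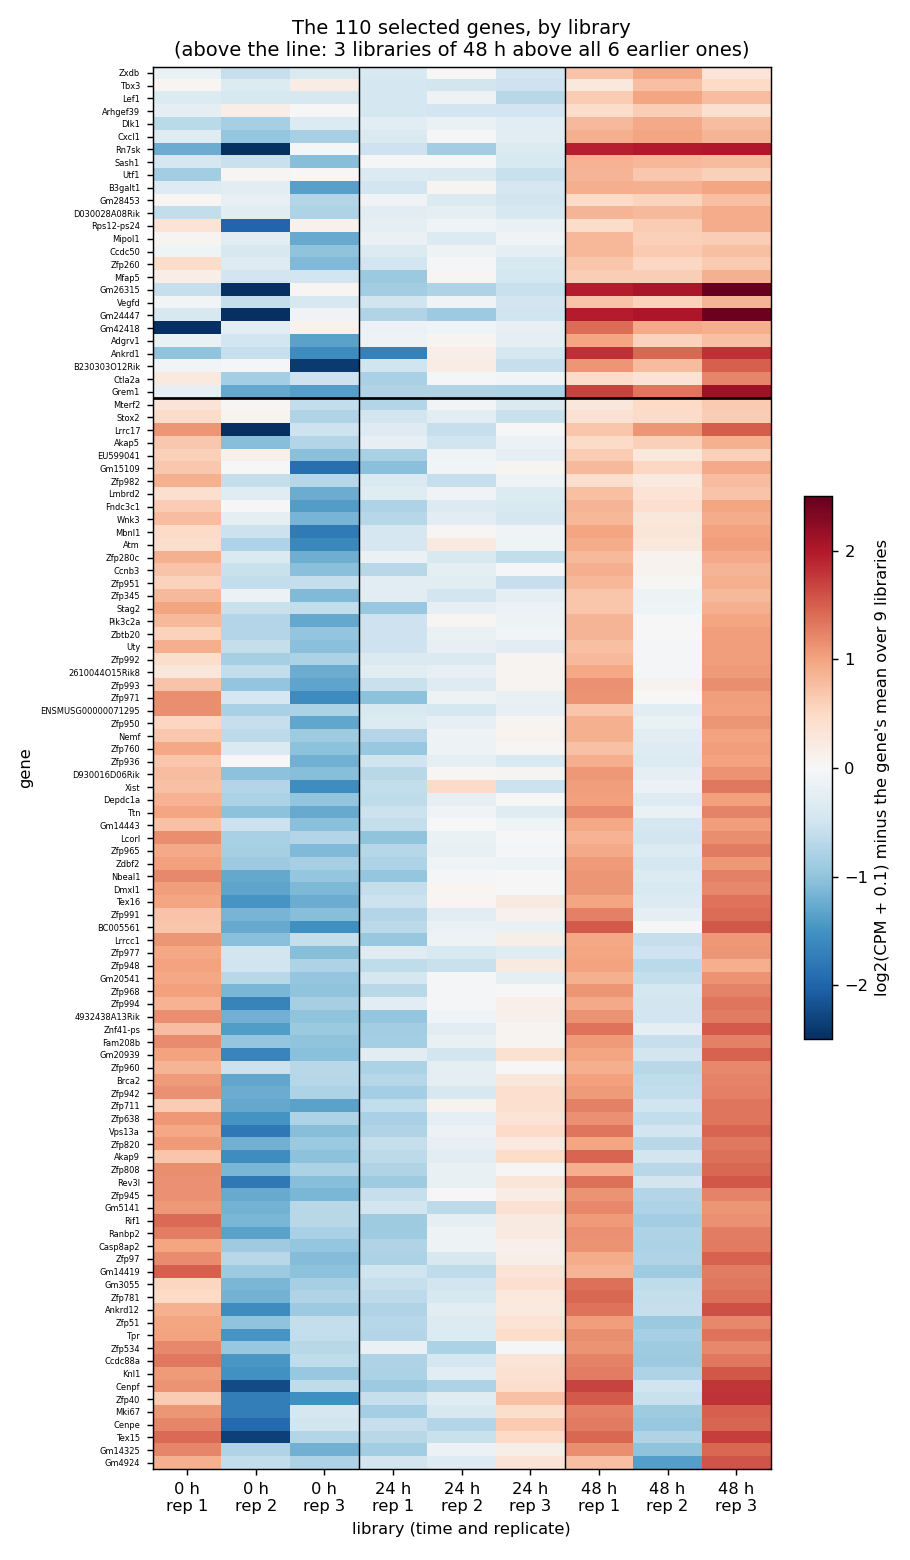
Each line is 1 of the 110 genes and each column 1 of the 9 libraries. Colour gives log2(CPM + 0.1) minus the mean of the gene over the 9 libraries, cut off at 2.5 in either direction. The 26 genes above the black line are high in all 3 libraries of 48 h, whereas most of the 84 below it are also high in 0 h replicate 1 and low in 48 h replicate 2.

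The kinds were defined with 48 h replicate 2 and 0 h replicate 1 among the libraries, so their values there are a description. For 48 h replicate 2, its level divided by the mean of the other 2 libraries of 48 h had a median of 0.929 over the 26 genes, 0.334 over the 84, and 1.04 over the 11891 expressed genes. The ratio ran from 0.660 to 1.36 in the 26 and from 0.157 to 1.02 in the 84, so the ranges overlapped. This library lay below the highest 24 h library for 62 of the 110 genes, while 48 h replicates 1 and 3 did so for 0. Taken alone, 48 h replicate 1 was at least 1.8 times the 24 h mean for 102 of the 110 genes, replicate 3 for 108, and replicate 2 for 26. At 0 h the first replicate divided by the mean of the others had a median of 1.33 over the 26 genes and 3.80 over the 84, against 0.976 over the expressed genes.

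In edgeR's quasi-likelihood fit over all genes, with a Benjamini-Hochberg adjusted p of up to 0.05 as the threshold for a call, all 110 genes passed the expression filter. Between 24 h and 48 h, 55 of the 110 were called higher, where 8.61% of 17499 genes tested were called higher and 12.7% lower. Their log2 fold change had a median of 1.02 and a range of 0.85 to 2.95, beside a median of -0.01 over the genes tested. Between 0 h and 24 h 1 gene, Arhgef39, was called lower, where 25.5% of 17592 genes were called in either direction, and the median log2 fold change of the 110 was -0.28. That median was 0.51 without 0 h replicate 1 and 0.02 with a replicate block, so its direction rested on that library. From 0 h to 48 h, 18 of the 110 were called higher, where 13.0% of 17755 genes were called higher, with a median log2 fold change of 0.74, and of 1.55 without 0 h replicate 1. These counts use the contrasts that chose the genes, and nothing is read from them. All 26 genes without overlap and 29 of the 84 with overlap were among the 55. The count of 55 was 110 without 48 h replicate 2, where 11.7% of all genes were called higher. It was 33 without 48 h replicate 1 and 33 without replicate 3, where 4.24% and 4.42% of all genes were, and 19 with all 9 libraries in 1 fit, where 1.56% were. The 29 of the 84 became 8, 8 and 0 in these last 3 fits, and the 26 became 25, 25 and 19. Without 0 h replicate 1, 80 of the 110 were called higher at 48 h than at 0 h, beside 17.6% of all genes, and 10 were called higher at 24 h than at 0 h, beside 13.2%.

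Signals, matrix proteins, transcription factors and a few related proteins are described together as 13 genes. The grouping was made after the values were seen, and other regulators of the set that overlap, such as Zbtb20 and Stox2, were not taken in. That 12 of the 13 were among the 26 without overlap follows from this choice and is a description. Grem1 (chr2:113746164-113758646, minus strand) had 3.98, 1.83 and 1.73 CPM in the 0 h libraries, 2.69, 2.72 and 2.66 at 24 h and 15.1, 11.8 and 20.5 at 48 h. The 48 h libraries were all several times the others, and the 0 h and 24 h libraries overlapped. Its log2 fold change from 24 h to 48 h was 2.56 ± 0.22 (SE, n = 3 per time), the largest among the protein-coding genes of the set. Lef1 was measured at 4.34, 4.14 and 4.16 CPM in the 0 h libraries, 4.03, 5.00 and 3.35 at 24 h and 8.62, 10.9 and 9.50 at 48 h, with a 48 h to 24 h ratio of 2.35. Its 48 h replicate 2 was the highest library. Dlk1 had 44.0, 39.6 and 55.6 CPM in the 0 h libraries, 58.2, 62.8 and 58.2 at 24 h and 123.4, 135 and 119.7 at 48 h. It was the most abundant of the 13 in CPM, and its log2 fold change had the smallest standard error of the set, 1.08 ± 0.07.

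**Figure D2:**
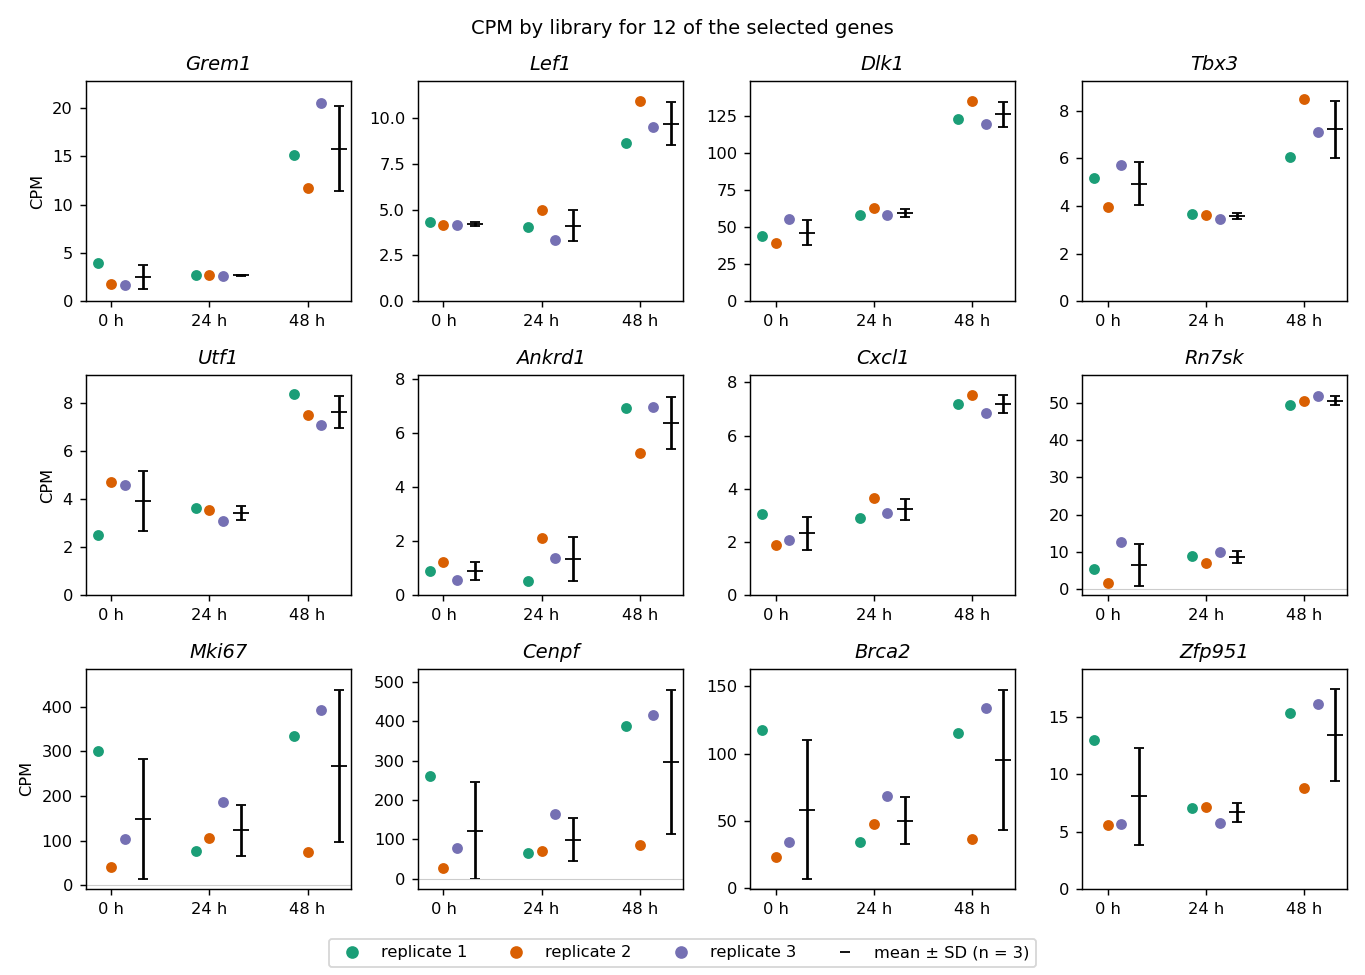
Points give the CPM of each library at 0 h, 24 h and 48 h for 12 of the selected genes, coloured by replicate number, and bars give the mean ± SD of the 3 libraries. The 8 genes from Grem1 to Rn7sk show 3 libraries of 48 h above all others, while in Mki67, Cenpf, Brca2 and Zfp951 the 48 h replicate 2 library lies well below the other 2 and 0 h replicate 1 well above the other 0 h libraries.

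Tbx3 encodes a T-box transcription factor. It had 5.17, 3.95 and 5.70 CPM in the 0 h libraries, 3.67, 3.61 and 3.44 at 24 h and 6.05, 8.47 and 7.11 at 48 h, and its mean at 24 h was 0.724 times that at 0 h. Utf1 encodes a chromatin-bound protein found in embryonic stem cells and undifferentiated spermatogonia. It was at 2.496, 4.70 and 4.58 CPM in the 0 h libraries, 3.62, 3.56 and 3.10 at 24 h and 8.35, 7.48 and 7.06 at 48 h, so the 48 h libraries were the highest although the 0 h and 24 h libraries lay close together. Ankrd1, a target of the YAP and SRF regulators, was at 0.891, 1.22 and 0.561 CPM in the 0 h libraries, 0.517, 2.11 and 1.38 at 24 h and 6.91, 5.27 and 6.96 at 48 h. It was near the floor of the data before 48 h, and its ratio of 24 h to 0 h, 1.498, was the highest of the set.

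Cxcl1 encodes a chemokine that attracts neutrophils. It had 3.03, 1.88 and 2.06 CPM in the 0 h libraries, 2.90, 3.67 and 3.10 at 24 h and 7.18, 7.52 and 6.86 at 48 h, and its 3 libraries of 48 h spanned a narrow range. Vegfd, a growth factor for lymphatic vessels, had 5.17, 3.57 and 4.11 CPM in the 0 h libraries, 3.83, 5.11 and 3.89 at 24 h and 8.94, 8.15 and 9.96 at 48 h. Mfap5, a protein of matrix microfibrils, had 3.63, 2.30 and 2.29 CPM in the 0 h libraries, 1.65, 3.33 and 2.36 at 24 h and 4.98, 5.00 and 6.10 at 48 h. All 3 were at low levels, with no overlap between 48 h and the earlier libraries. Sash1, which encodes a signalling scaffold, had 48 h libraries of 46.9, 45.4 and 44.1 CPM above 24 h libraries of 19.6 to 25.2. Adgrv1, an adhesion receptor, and B3galt1, a galactosyltransferase, had 48 h to 24 h ratios of 1.84 and 2.30. Lrrc17, a secreted leucine-rich protein, was the 1 of the 13 with overlap. It had 33.7, 1.88 and 10.9 CPM in the 0 h libraries, 12.6, 10.499 and 15.5 at 24 h and 25.3, 34.0 and 44.8 at 48 h, so 0 h replicate 1 was above 48 h replicate 1.

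Markers of somatic cells also moved between the times and are given here beside these genes. Of 14 markers of peritubular myoid and smooth muscle cells, 9 were called higher at 48 h than at 24 h, with a median log2 difference of 0.54. Their summed level ran from 193 to 237 CPM over the 0 h libraries, 338 to 387 at 24 h and 499 to 559 at 48 h. Of 17 fibroblast and stromal markers, 5 were higher and 2 lower, and their sum ran from 207 to 249.9, 322 to 394 and 425 to 487 CPM. Over all 17499 genes tested between 24 h and 48 h, 8.61% were called higher and 12.7% lower. Between 0 h and 24 h the median log2 difference of the 14 myoid and smooth muscle markers was 1.99, larger than that of the second day. From 0 h to 48 h, 10 of the 14 were called higher and 3 lower, where 2310 and 3292 of all 17755 genes tested were. Acta2, smooth muscle actin, went from 1.41 to 2.43 CPM at 0 h to between 149 and 187 at 48 h, a larger rise than that of the summed level. None of the markers in these 2 lists was at 0 in all libraries. Dlk1 itself is in the stromal list. The part of these cells in the higher levels of Grem1, Ankrd1, Cxcl1, Mfap5 and the rest was not tested.

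The promoters of 5 genes are printed as examples of the motifs searched, chosen after their matches were seen. RefSeq gave a window of 300 bases, from 250 before to 50 after the start, for 80 of the 110 genes, in 92 windows. Windows are of GRCm38.p6 and are written 5′ to 3′ along the gene. Capitals mark matches on either strand to 10 motifs searched, chosen after the genes were known: the TATA box TATAAA, the CCAAT box CCAAT, the CHR element TTTGAA, the SMAD GC element GGCGCC, the TEAD motif GGAATG, the TCF/LEF motif ATCAAAG, AP-1 TGANTCA, CRE TGACGTCA, the NF-kB motif and the E-box CACGTG. Matches of 2 motifs can overlap and then form 1 run of capitals.
Grem1 (chr2:113758599-113758898, minus strand): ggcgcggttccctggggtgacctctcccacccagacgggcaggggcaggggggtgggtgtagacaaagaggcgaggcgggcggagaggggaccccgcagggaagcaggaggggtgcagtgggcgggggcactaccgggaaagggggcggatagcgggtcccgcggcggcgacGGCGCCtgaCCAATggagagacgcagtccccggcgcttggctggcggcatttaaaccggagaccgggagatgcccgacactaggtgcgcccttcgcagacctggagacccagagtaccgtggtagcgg
Ankrd1 (chr19:36119795-36120094, minus strand): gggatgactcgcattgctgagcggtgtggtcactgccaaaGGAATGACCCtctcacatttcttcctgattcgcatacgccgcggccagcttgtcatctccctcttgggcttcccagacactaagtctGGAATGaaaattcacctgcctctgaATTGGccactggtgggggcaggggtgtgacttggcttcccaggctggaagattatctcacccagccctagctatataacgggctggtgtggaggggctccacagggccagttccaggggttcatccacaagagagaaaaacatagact
Cxcl1 (chr5:90890995-90891294, plus strand): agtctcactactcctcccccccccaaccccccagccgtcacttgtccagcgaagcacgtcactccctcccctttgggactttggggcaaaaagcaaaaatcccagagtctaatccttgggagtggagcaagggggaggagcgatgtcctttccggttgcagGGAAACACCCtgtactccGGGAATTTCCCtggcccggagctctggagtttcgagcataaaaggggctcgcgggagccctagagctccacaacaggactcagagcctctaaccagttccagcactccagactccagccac
Mki67 (chr7:135716330-135716629, minus strand): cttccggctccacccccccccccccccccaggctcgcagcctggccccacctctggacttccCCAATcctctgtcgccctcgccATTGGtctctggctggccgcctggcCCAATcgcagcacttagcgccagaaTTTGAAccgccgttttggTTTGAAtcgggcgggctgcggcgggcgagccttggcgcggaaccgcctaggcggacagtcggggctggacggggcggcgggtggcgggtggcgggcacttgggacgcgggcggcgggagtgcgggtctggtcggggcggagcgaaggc
Depdc1a (chr3:159495183-159495482, plus strand): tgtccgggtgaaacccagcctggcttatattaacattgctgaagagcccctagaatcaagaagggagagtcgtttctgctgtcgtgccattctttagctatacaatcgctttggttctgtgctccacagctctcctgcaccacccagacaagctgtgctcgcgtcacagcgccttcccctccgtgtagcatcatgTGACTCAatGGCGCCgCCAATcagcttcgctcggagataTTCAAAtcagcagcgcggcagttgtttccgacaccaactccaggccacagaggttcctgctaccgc
Cxcl1 held 3 matches to the NF-kB motif, at -89, -71 and -70 from the start, and Ankrd1 held the TEAD letters at -210 and -123, the NF-kB motif at -210 and CCAAT at -98. Grem1 held GGCGCC at -78 and CCAAT at -69. Mki67 held the CHR letters at -116 and -98 and CCAAT at -188, -166 and -141. Depdc1a held CHR at -16, CCAAT at -39, GGCGCC at -46 and AP-1 at -55.

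Over all 32851 RefSeq windows, 5.6% held the NF-kB motif, 14.7% the TEAD letters and 17.9% the CHR letters. Among the 92 windows of the selected genes, 11 held the first, 12 the second and 12 the third. CHR letters were in the windows of 4 of the 8 mitosis genes with a window. CCAAT was in 59.8% of the windows of the selected genes and in 37.4% of all windows. The share was 36.4% over the 22 windows of the genes without overlap and 67.1% over the 70 windows of the genes with overlap. GGCGCC was in 27.3% of the former, 11.4% of the latter and 11.9% of all windows. For the E-box these shares were 9.1%, 11.4% and 7.2%, and for the TATA box 18.2%, 10.0% and 13.6%. The TCF/LEF letters were in 1.1% of the windows of the selected genes and 3.7% of all windows, AP-1 in 3.3% and 7.8%, and CRE in 3.3% and 1.8%. Windows are not independent. 8 genes of the set, among them Zfp781 and Gm3055, had a window at least 90% identical to that of another gene of the set. Lef1 and Mterf2 each had 2 windows that overlap with a shift of at most 30 bases, and Ctla2a and Zfp951 each had 2 that overlap with a larger shift. The TATA box share of 18.2% and the AP-1 share of 3.3% each count 1 site of Ctla2a in both of its windows. The 27.3% for GGCGCC is 6 of 22 windows, 2 of them windows of Lef1 that hold the same site. A match describes the letters of a window and does not show that a factor bound there.

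The 3 genes of 7SK RNA and 1 gene over ribosomal RNA were all among the 26. Rn7sk had 5.35, 1.60 and 12.6 CPM in the 0 h libraries, 8.89, 7.00 and 10.0 at 24 h and 49.4, 50.6 and 51.7 at 48 h. The 3 libraries of 48 h agreed closely and lay far above every earlier one. Gm24447 was at 3.45, 0.235 and 4.30 CPM in the 0 h libraries, 2.69, 2.39 and 3.20 at 24 h and 18.2, 18.8 and 25.5 at 48 h, and Gm26315 at 2.97, 0.235 and 4.67 CPM in the 0 h libraries, 2.43, 2.61 and 3.05 at 24 h and 17.9, 18.96 and 25.7 at 48 h. All 3 were lowest in 0 h replicate 2, so the 0 h libraries were spread widely. Libraries were made from RNA selected by poly-T beads, and 7SK RNA carries no poly-A tail, so these counts describe what passed the selection. Gm42418 (chr17:39846958-39848788, plus strand) has exons that overlap AY036118 and CT010467.1 on the other strand. It had 17.2, 88.5 and 116 CPM in the 0 h libraries, 98.1, 101 and 94.4 at 24 h and 287, 209.9 and 204 at 48 h. Its 0 h replicate 1 was far below the other libraries, and 100% of its transcript matched other genes, mostly CT010467.1.

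Genes of mitosis and chromosome segregation showed large means at 48 h that did not hold in each library. There were 10 of them, and 9 overlapped. Cenpf, a kinetochore protein, had 261, 25.5 and 77.8 CPM in the 0 h libraries, 64.0, 70.3 and 163 at 24 h and 387, 84.4 and 416 at 48 h. The 48 h replicate 2 library lay within the range of the 24 h libraries, and 0 h replicate 1 lay above all libraries of 24 h. Mki67, which encodes the proliferation marker Ki-67, had 300.3, 41.7 and 103 CPM in the 0 h libraries, 76.9, 106 and 188 at 24 h and 334, 74.8 and 392 at 48 h. Its 48 h replicate 2 was below all 3 libraries of 24 h. Cenpe, a kinetochore motor, had 117, 13.0 and 36.5 CPM in the 0 h libraries, 33.5, 30.1 and 79.0 at 24 h and 123.2, 25.9 and 137 at 48 h, and Knl1, a kinetochore scaffold, had 52.3, 8.74 and 12.9 CPM in the 0 h libraries, 14.3, 20.8 and 32.7 at 24 h and 60.9, 14.6 and 73.7 at 48 h. Both were also lowest at 48 h in replicate 2.

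The other genes of this group were Depdc1a, Lrrcc1, Akap9, Ccnb3, Stag2 and Arhgef39. Depdc1a, needed for normal mitosis, had 16.3, 5.08 and 4.44 CPM in the 0 h libraries, 5.69, 7.67 and 8.81 at 24 h and 18.0, 7.03 and 18.1 at 48 h. For Akap9, a centrosomal anchor protein, 48 h replicate 2 was at 29.0 CPM beside 110.2 and 104 in the others. Ccnb3, a cyclin, had 11.2, 4.61 and 3.27 CPM in the 0 h libraries, 4.19, 5.72 and 6.64 at 24 h and 13.0, 7.21 and 12.4 at 48 h, and Stag2, a subunit of cohesin, had 138, 47.2 and 45.7 CPM in the 0 h libraries, 36.3, 61.0 and 62.8 at 24 h and 112, 65.2 and 129.98 at 48 h. In both, all 3 libraries of 48 h exceeded the 24 h libraries, but 0 h replicate 1 was higher than 48 h replicate 2. Arhgef39, a guanine nucleotide exchange factor, was the exception without overlap, at 9.27, 12.3 and 10.9 CPM in the 0 h libraries, 8.12, 7.89 and 7.92 at 24 h and 15.2, 17.03 and 14.6 at 48 h. It was the 1 gene called lower at 24 h than at 0 h, with a log2 fold change of -0.55 ± 0.16. No gene of the set was called between 0 h and 24 h by edgeR with library size alone, with no expression filter, with a replicate block, without any 1 of the 24 h libraries or without 0 h replicate 2. Of the 10 genes, 7 had their 48 h replicate 2 below the highest 24 h library.

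The 5 genes of DNA repair and replication all overlapped. Tex15, needed for meiotic recombination and transposon silencing in germ cells, had 221, 16.3 and 50.0 CPM in the 0 h libraries, 50.8, 56.2 and 116 at 24 h and 224, 48.8 and 274 at 48 h. The 0 h replicate 1 library was 6.67 times the mean of the other 0 h libraries, the highest such ratio of the set. Brca2, which acts in homologous recombination, had 118, 22.8 and 34.2 CPM in the 0 h libraries, 34.3, 47.5 and 68.5 at 24 h and 115, 36.3 and 134 at 48 h. Rev3l, the catalytic subunit of DNA polymerase zeta, and Rif1, a regulator of replication timing, had 48 h to 24 h ratios of 2.37 and 1.91, with 48 h replicate 2 at 0.263 and 0.254 times the mean of its replicates. Atm, the kinase that signals DNA breaks, was the 1 of the 5 called higher at 48 h than at 24 h, where 8.61% of all genes were. It had 172, 73.9 and 41.3 CPM in the 0 h libraries, 94.2, 147 and 117 at 24 h and 239, 150.3 and 259 at 48 h. In the nuclear pore genes Ranbp2 and Tpr, 48 h replicate 2 was at 0.253 and 0.235 times the mean of its replicates. Ranbp2 was the most abundant of the set in CPM at 48 h, with 341 ± 197 CPM (SD, n = 3), and its 48 h replicate 2 was at 115. On a scale per length, CPM at 48 h divided by the kilobases of the longest transcript, the highest levels were those of Rps12-ps24 at 238, Rn7sk at 153 and Gm42418 at 128, and Ranbp2 was at 35.5.

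Genes named Zfp or Znf made up 30 of the 110, or 27.3%, beside 2.73% of the expressed genes. This count was made after the names were seen, and it is not given without 48 h replicate 2 or 0 h replicate 1. 29 of the 30 overlapped and 1, Zfp260, did not. In all 30, 48 h replicate 2 was the lowest library of its time, at a median of 0.320 times the mean of the others. Zfp260 had 29.4, 17.2 and 9.86 CPM in the 0 h libraries, 15.3, 20.997 and 16.5 at 24 h and 34.5, 30.9 and 33.8 at 48 h. Zfp951 was at 13.0, 5.59 and 5.66 CPM in the 0 h libraries, 7.08, 7.17 and 5.76 at 24 h and 15.3, 8.83 and 16.2 at 48 h, and Zfp40 at 6.18, 1.13 and 1.31 CPM in the 0 h libraries, 2.64, 3.22 and 6.69 at 24 h and 11.6, 2.66 and 14.1 at 48 h. For Zfp40 the 48 h replicate 2 was as low as the first replicate of 24 h. Zfp638, the most abundant of the 30 in CPM, had 167, 27.9 and 46.2 CPM in the 0 h libraries, 45.0, 66.7 and 99.3 at 24 h and 175, 51.7 and 200.5 at 48 h. The other genes so named were Zfp936, Zfp977, Zfp950, Zfp808, Zfp711, Zfp280c, Zfp345 on chromosome 2, Zfp781 on chromosome 10 and those of the clusters given next. The 48 h to 24 h ratios of the 30 ran from 1.803 to 2.62, the highest being Znf41-ps, an unprocessed pseudogene. Over all 325 expressed genes with such names, 63 were called higher at 48 h than at 24 h and 11 lower, with a median log2 fold change of 0.24, and of 0.20 in the fit with offsets for GC content and length. Over all 17499 genes tested, 8.61% were called higher and 12.7% lower.

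Of the Zfp and Znf genes, 10 were on chromosome 17, of which Zfp960 and Zfp97 neighboured each other at 17064113 to 17146831, and the other 8, Zfp51, Zfp948, Zfp760, Zfp820, Zfp942, Zfp994, Zfp945 and Zfp40, lay between 21450374 and 23193252. 6 were on chromosome 4 between 145825237 and 147702553, namely Znf41-ps, Zfp992, Zfp993, Zfp991, Zfp982 and Zfp534. Of the 4 on chromosome 2, Zfp968, Zfp965 and Zfp971 lay between 175166255 and 178034022 together with Gm14443, Gm14419 and Gm14325 of the set. Zfp genes of such clusters share sequence. Of the 30, 20 had at least 1 stretch of 75 bases with 97% identity to another gene, and in 9 such stretches covered at least 50% of the transcript. Zfp97 shared 100% of its longest transcript, mostly with Zfp960. Zfp781 and Gm3055 each shared 100%, mostly with each other, and matched 43 genes in all, so the split of reads between these genes is uncertain.

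The remaining 46 genes, 8 without and 38 with overlap, had mixed roles. The 8 were Ccdc50, Zxdb, Ctla2a, D030028A08Rik, B230303O12Rik, Gm28453, Mipol1 and Rps12-ps24. Ccdc50, a coiled-coil protein, had 24.9, 20.3 and 13.2 CPM in the 0 h libraries, 21.1, 24.3 and 22.4 at 24 h and 47.2, 41.8 and 44.9 at 48 h, and its standard error was small, with a log2 fold change of 0.99 ± 0.09. Zxdb, an X-linked zinc finger gene, shared 52.1% of its transcript, mostly with Zxda, and its 48 h replicate 2 was the highest of the 48 h libraries. Rps12-ps24, a pseudogene of a ribosomal protein, shared 48.3%, mostly with Rps12 itself. Gm28453 shared 47.3%, D030028A08Rik 43.8% and Ctla2a 37.9% with other genes, and Ctla2a also has exons that overlap others on its strand. These 5 counts are uncertain for that reason.

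Among the 38, Ttn, which encodes titin and has the longest transcript of the set at 106824 bases, had 29.1, 7.10 and 6.03 CPM in the 0 h libraries, 10.1, 13.7 and 11.8 at 24 h and 33.1, 13.0 and 34.7 at 48 h. Casp8ap2, a regulator of histone gene expression, had 48 h libraries of 149, 39.7 and 169 CPM around 24 h libraries of 40.4 to 74.6. Akap5, a kinase anchor, and Stox2 were steadier over the 48 h libraries, at 0.934 and 0.985 for replicate 2 over its replicates. They overlapped through 0 h replicate 1. Zdbf2, an imprinted gene, had a 48 h to 24 h ratio of 2.05. Xist, the RNA that silences the X chromosome in female cells, stood at 9.75, 3.48 and 1.92 CPM in the 0 h libraries, 3.77, 8.11 and 3.99 at 24 h and 12.1, 5.22 and 14.7 at 48 h. Uty, on the Y chromosome, had 29.1, 10.2 and 7.39 CPM in the 0 h libraries, 10.7, 13.3 and 12.7 at 24 h and 26.0, 15.1 and 31.9 at 48 h. The levels of Xist and Uty were both high in 0 h replicate 1 and in 48 h replicates 1 and 3. In all, 11 of the 109 genes with a position were on the X chromosome, or 10.1%, beside 4.27% of the expressed genes.

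Several of the 38 were abundant or had large ratios. BC005561 had 20.7, 5.26 and 4.35 CPM in the 0 h libraries, 8.01, 11.4 and 11.4 at 24 h and 37.3, 12.7 and 37.6 at 48 h, with the highest 48 h to 24 h ratio of the 38, 2.84. Fndc3c1 had 25.8, 16.4 and 6.22 CPM in the 0 h libraries, 9.62, 13.1 and 12.7 at 24 h and 29.9, 22.2 and 32.7 at 48 h. In both, the 48 h libraries lay above the 24 h libraries and 0 h replicate 1 lay above 48 h replicate 2. Ankrd12, a nuclear ankyrin repeat protein, had 67.04, 12.1 and 19.2 CPM in the 0 h libraries, 21.6, 30.1 and 43.2 at 24 h and 92.7, 24.4 and 111 at 48 h, and Fam208b had 317, 72.1 and 69.9 CPM in the 0 h libraries, 78.1, 124 and 148 at 24 h and 294, 94.8 and 335 at 48 h. For 4932438A13Rik the 48 h libraries were at 256, 84.6 and 288 CPM. In these 3 genes 48 h replicate 2 lay within the range of the 24 h libraries.

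The other genes among the 38 were Wnk3, Gm14325, Nbeal1, Gm3055, Vps13a, Ccdc88a, Gm15109, Lcorl, Gm20939, Mbnl1, Dmxl1, D930016D06Rik, Gm5141, Zbtb20, ENSMUSG00000071295, Gm14443, Gm14419, Gm20541, Tex16, 2610044O15Rik8, EU599041, Gm4924, Nemf, Mterf2, Pik3c2a and Lmbrd2. Over all 46 genes the 48 h to 24 h ratio ran from 1.81 to 2.84, with a median of 1.96. The level of 48 h replicate 2 over its replicates ran from 0.157 to 1.36, with a median of 0.409, and in 26 of the 46 it lay below the highest 24 h library. Of the 46, 23 were called higher at 48 h than at 24 h, where 8.61% of all 17499 genes tested were. The rule used this contrast, so the count is a description.

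Base composition differed in its median between the 2 kinds of genes. The rule did not use it directly, but the kinds were defined with 48 h replicate 2 and 0 h replicate 1. Over all expressed genes these libraries deviated along GC content, so the difference is a description. The longest transcripts of the set had a median GC content of 40.2%, beside 49.7% for the expressed genes. For the 26 genes without overlap the median was 48.0%, and for the 83 with overlap and a transcript it was 39.0%. The ranges overlapped, from 37.4% to 63.5% in the former and from 34.3% to 49.6% in the latter. The lowest decile of the expressed genes ended at 41.3% GC, and 65 of 109 selected genes lay below that, 3 of the 26 and 62 of the 83. Transcripts were also long, with a median of 4148 bases beside 3410.5 bases. The medians were 3068.5 and 4554 bases for the 2 kinds, and 32 of the 109 exceeded the top decile limit of 6886 bases.

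The same 2 libraries deviated along GC content over all expressed genes. In the decile of genes with the lowest GC content, 48 h replicate 2 was at a median of 0.862 times its replicates, and 0 h replicate 1 at 1.70 times its own. In the decile with the highest GC content these values were 1.13 and 0.749. The median log2 fold change from 24 h to 48 h was 0.26 in the former and -0.17 in the latter, which held 65 and 3 of the selected genes. The part of GC content in the values of the set was not tested, but the rule was applied again to CPM corrected along GC content and length, an alternative chosen after seeing the data. It then found 44 genes, of which 33 were among the 110. Of the 26 without overlap 21 were found again, and of the 84 with overlap 12, namely BC005561, Cenpf, Fndc3c1, Gm15109, Lrrc17, Mki67, Rev3l, Wnk3, Zfp781, Zfp991, Zfp993 and Znf41-ps.

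**Figure D3:**
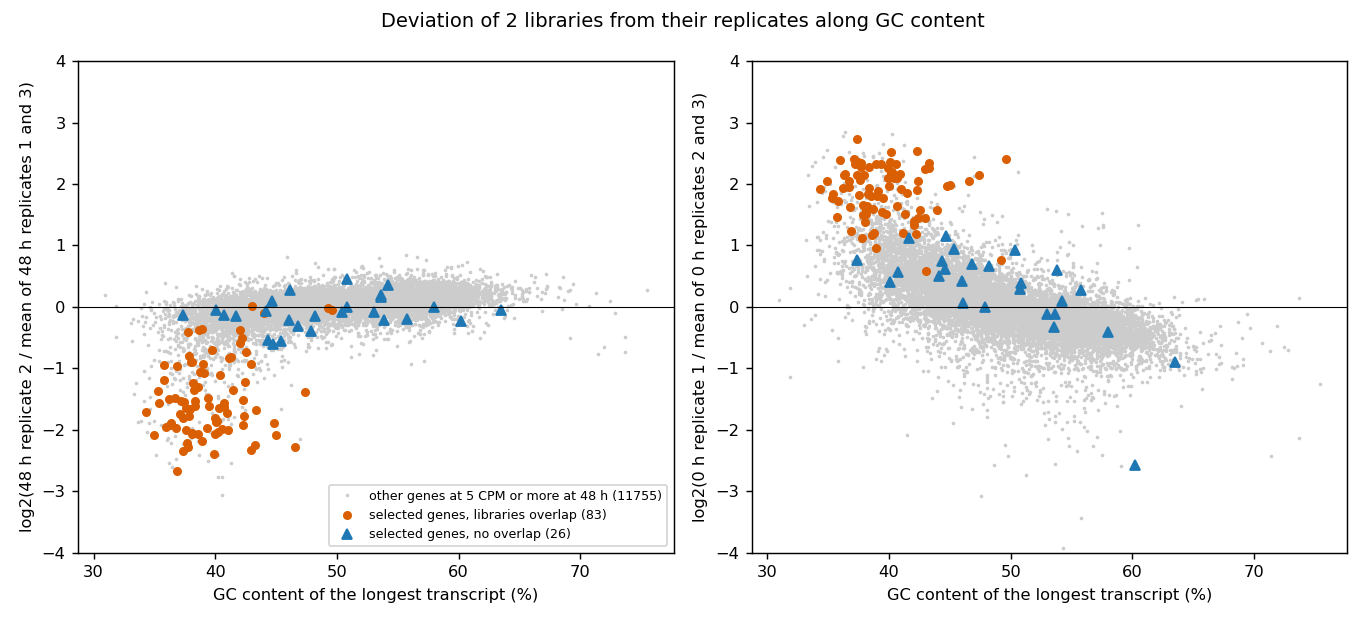
Each point is a gene with a 48 h mean of at least 5 CPM, placed by the GC content of its longest transcript in percent. The vertical axes give, on a log2 scale, the 48 h replicate 2 library over the mean of its replicates and the 0 h replicate 1 library over the mean of its own, with 6 genes in each panel beyond the limits of 4. Of the selected genes with overlap, 62 of 83 have a GC content under 41.3%, and most lie low in the first panel and high in the second, while the 26 without overlap are spread over a wider range of GC content.

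How far the choice of genes rested on single libraries was read from repeats of the rule. Without 48 h replicate 2 the rule found 216 genes, 109 of them among the 110. Without 48 h replicate 1 it found 73 and without replicate 3 it found 45, with 65 and 42 among the 110. Without 0 h replicate 1 it found 74 genes, of which 49 were among the 110. Without both 0 h replicate 1 and 48 h replicate 2, a repeat chosen after seeing the data, it found 118 genes and 48 of the 110, 21 of the 26 and 27 of the 84. 10 of the 110 were found in all 9 repeats that left out 1 library, namely Arhgef39, B3galt1, Ccdc50, D030028A08Rik, Dlk1, Gm24447, Lef1, Utf1, Vegfd and Zfp951. The count of genes without overlap was 26, and it was 75 without 48 h replicate 2, 48 without 0 h replicate 1 and 110 without both. The same shares of the 11891 expressed genes were 15.8%, 14.6% and 21.3%, beside 11.4% with all libraries. These 2 libraries were left out because they stood apart over the selected genes, so a higher count is built into the omission.

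A library that the repeat did not use had no part in that choice, but its ratio is taken to the 24 h mean that the rule used. Choosing genes with a 24 h mean low beside 48 h raises this ratio, and the shares over all genes carry no such choice. The values below are therefore a description. Of the 216 genes chosen without 48 h replicate 2, 25 reached 1.8 times the 24 h mean in that library, or 11.6%, with a median ratio of 0.954, beside 0.85% and a median of 1.01 over 11927 genes. Of the 73 chosen without replicate 1, 59 reached it there, or 80.8%, and of the 45 chosen without replicate 3, 40 did, or 88.9%. The corresponding shares of all genes were 2.53% and 2.96%.

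**Figure D4:**
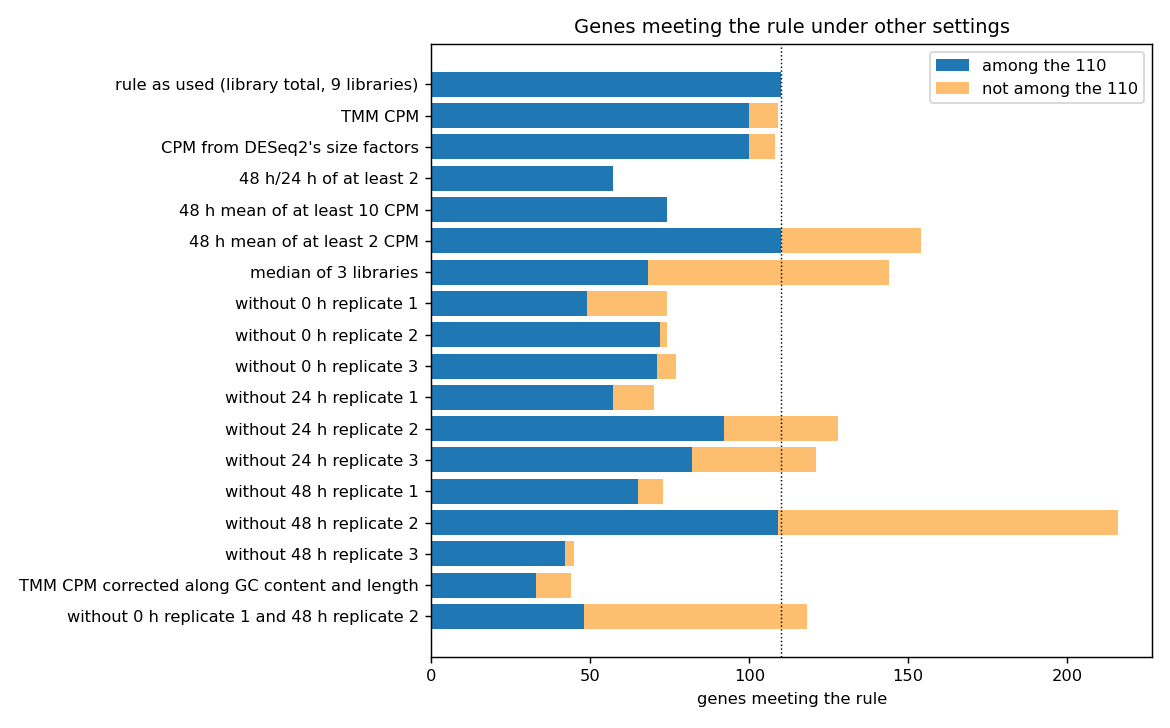
Bars give the number of genes that met the rule under each setting, split into genes among the 110 and others, with a dotted line at 110. The count falls to 45 without 48 h replicate 3 and reaches 216 without 48 h replicate 2.

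Genes near the limits of the rule lay close to each other in the value it used. At the limit of 1.8 for the 48 h to 24 h ratio, Zfp345, Atm and Zfp948 lay inside at 1.8027, 1.8107 and 1.8119, and Prkaa2, Arhgap5 and Bmi1 outside at 1.7923, 1.7968 and 1.7995. At the upper limit of 1.5 for the 24 h to 0 h ratio, Sash1, Zfp40 and Ankrd1 lay inside at 1.4412, 1.4562 and 1.4976, and Kcng3, Zup1 and Itsn2 outside at 1.5112, 1.5356 and 1.5921. At the lower limit of 0.67, Gm14419, Zfp971 and Rif1 lay inside at 0.6728, 0.6807 and 0.6824, and Gm6871, Zfp988 and Zfp518a outside at 0.6641, 0.6644 and 0.6663. At the limit of 5 CPM for the 48 h mean, Zfp968, Zfp977 and Gm14419 lay inside at 5.0307, 5.1312 and 5.2448, and Gm27216, Dmrta2 and Arhgdib outside at 4.8148, 4.8172 and 4.9203 CPM. These values chose the genes and are given as a description.

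8 of the 110 genes belonged to lists of pathways or cell types, and each list is given as counts of edgeR calls between 24 h and 48 h. The counts and medians include the selected gene, which the rule chose for a higher mean at 48 h than at 24 h. In the BMP response list, which holds Grem1, 6 of 17 genes tested were higher and 1 lower, with a median log2 difference of 0.42. Among the higher genes besides Grem1 were Smad7 (0.43 ± 0.09), Smad9 (1.33 ± 0.15), Msx1 (1.27 ± 0.23) and Tbx20 (1.62 ± 0.49), log2 differences with SE. Smad7 and Smad9 encode intracellular members of the pathway. Dlx3 was the lower gene. In the Wnt response list, Lef1 was the 1 higher gene of 13 tested and 4 were lower, Axin2, Tcf7, Sp5 and Ascl2, with a median of -0.11.

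In the matrix list, which holds Mfap5, 18 of 45 genes were higher and 9 lower, with a median of 0.24. Postn, periostin, and Lum, lumican, were higher by 1.52 and 1.13 on the log2 scale. In the list of undifferentiated spermatogonia, 3 of 22 were higher, Utf1, Id4 and Pax7, and 9 were lower, among them Gfra1, the GDNF co-receptor, with a log2 difference of -1.02. The median was -0.40. Of the meiotic prophase list, which holds Tex15, 4 of 28 genes were higher and 2 lower, with a median of 0.28. SRF and YAP targets, which include Ankrd1, had 5 higher and 1 lower of 22, with a median of 0.14. Cytokines and chemokines, which include Cxcl1, had 8 higher and 3 lower of 27, with a median of 0.52, and Cxcl12 was higher by 1.39. Imprinted genes, which include Dlk1, had 5 higher and 6 lower of 28, with a median of 0.09, and Meg3, the RNA from the same imprinted locus as Dlk1, was higher by 0.72. Over all 17499 genes tested the median was -0.01, and 8.61% were higher.

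The labelled cell type was checked with marker lists. Of 12 germ cell markers none was at 0 in all libraries, and their sum ran from 1751 to 3162 CPM at 0 h, 2321 to 2633 at 24 h and 2421 to 2816 at 48 h. Of 11 tested between 24 h and 48 h, 1 was higher and 1 lower. Over all 17499 genes tested between these times, 8.61% were called higher and 12.7% lower. Sertoli cell markers summed to between 178 and 217, 247 and 318, and 339 and 347 CPM at the 3 times, with 3 of 14 higher and 1 lower between 24 h and 48 h. Leydig cell markers summed to 17.6 to 24.1, 74.2 to 94.7 and 114 to 138 CPM, with 2 of 6 higher. Endothelial markers went from a sum of 220.4 to 231 CPM at 0 h to 61.0 to 64.3 at 48 h, with 4 of 9 lower between 24 h and 48 h. Macrophage markers summed to at most 24.3 CPM, with 1 of 4 higher.

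**Figure D5:**
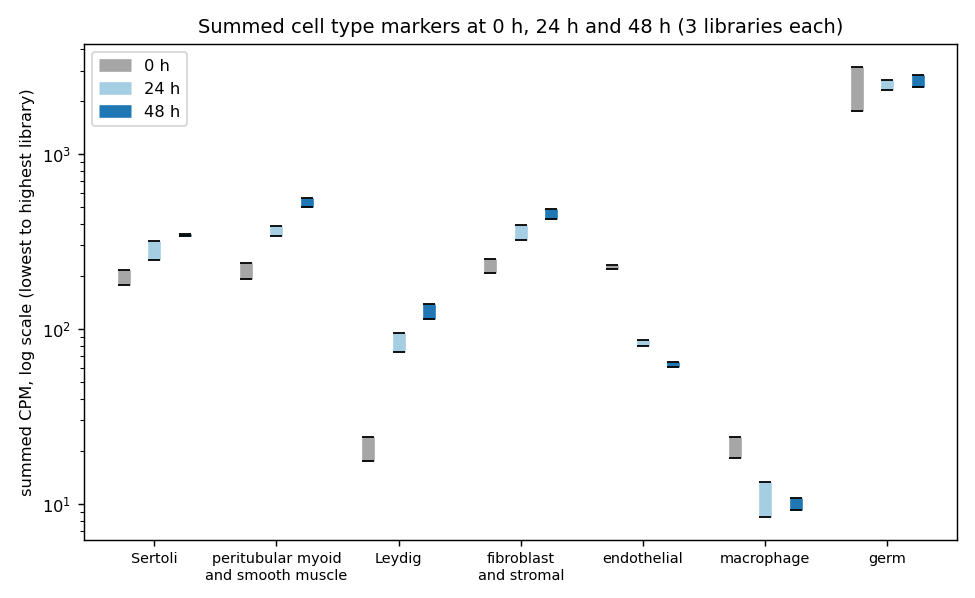
Vertical bars span the lowest to the highest of the 3 libraries at each time for the summed CPM of each marker list, on a log scale. Sums of Sertoli, peritubular myoid, Leydig and stromal markers are highest at 48 h, endothelial and macrophage markers are highest at 0 h, and germ cell markers overlap between the times.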

How the data were processed

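Poly-T selected RNA of EGFP-SSCs was sequenced in 9 libraries, 3 per time. Per the labels, the authors used fastp, HISAT2 and featureCounts with GRCm38 to make the deposited counts of reads per gene, and versions, annotation release and strand setting were not given in the sources used here. The labels call the replicates biological without naming separate cultures, so p-values measure the spread between these libraries. Here CPM was computed from the library totals, 16825251 to 22201892 counts, and the selection rule was applied to the means. The genes and lists were chosen with earlier results of these data known, and role groups, name counts and motifs after values were seen. Genes were named when they had 1 of the 20 largest 48 h to 24 h ratios or 1 of the 12 highest 48 h means, belonged to a list, lay next to a limit, or shared a symbol stem, and others were named after their values were seen. Each pair of times was fitted with edgeR 4.0.16 in R 4.3.3 (TMM, filterByExpr, quasi-likelihood test, Benjamini-Hochberg adjustment over all genes tested, threshold 0.05). In a check on simulated data for 48 h against 24 h with 17525 genes, edgeR recovered 196 of 200 changed genes with 8 false calls. Recovery and false calls at the wide spread between libraries seen in many of the selected genes, or with libraries that deviate along GC content, were not examined. The reliability of the calls for the selected genes was therefore not tested. Alternatives were DESeq2 1.42.0, other size factors and filters, 1 fit of all libraries, a replicate block, offsets for GC content and length, other limits of the rule and leaving out each library. Transcripts came from GENCODE M21 and promoters from RefSeq on GRCm38.p6, and shared sequence was found with BLAST 2.17.0. Some items are not reported here.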

Additional observations from a re-analysis of the deposited data

How the results depend on the processing

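The number of genes meeting the rule was 110, and it was 57 with a 48 h to 24 h ratio of at least 2, 44 with CPM corrected along GC content and length, and from 45 to 216 when 1 library was left out, the ends being those without the third and the second replicate of 48 h. It was 109 with TMM and 108 with DESeq2 size factors. The 26 genes without overlap became 26 to 75 when 1 library was left out, and 110 without both 0 h replicate 1 and 48 h replicate 2, libraries left out because they stood apart over these genes, where 21.3% of expressed genes did not overlap in place of 11.4%. The corrected CPM and the counts of genes without overlap were alternatives chosen after seeing the data. Of the 110, 55 were called higher between 24 h and 48 h, where 1506 of 17499 genes were. The count was 110 with no expression filter, where 2161 of 32531 genes were higher. With all 9 libraries in 1 fit it was 19, where 285 of 18262 were higher and calls over all genes went from 3732 to 1043. When 1 library was left out it was 33 to 110. The 33 came without 48 h replicate 1 or 3, where 4.24% and 4.42% of all genes were higher. The 110 came without 48 h replicate 2, where 11.7% were. Between 0 h and 24 h 1 was called, where 25.5% of all genes were, and 0 with library size alone or no expression filter. The count was 2 with all 9 libraries in 1 fit, where 5751 of 18262 genes were called. It was also 2 with offsets for GC content and length, where 6354 of 17592 were. When 1 library was left out it was 0 to 11, with a median log2 fold change from -0.53 to 0.51. The 11 came without 0 h replicate 1, where 5316 of 18132 genes were called. Between 0 h and 48 h 18 were called higher, where 2310 of 17755 genes were. With the offsets 32 were, where 3928 of 17755 genes were higher. When 1 library was left out the count was 11 to 80, with a median log2 fold change from 0.47 to 1.55. The 11 came without 48 h replicate 1, where 1317 of 18309 genes were higher. The 80 came without 0 h replicate 1, where 3232 of 18408 were. Over 70 named genes, no log2 fold change called in the main fit was reversed in the other fits. The rule fixed the direction from 24 h to 48 h, and only 1 selected gene was called between 0 h and 24 h, so nothing is read from this. Between 24 h and 48 h, 44 values of these genes in the other fits moved by at least the SE and 936 did not. In each of the other 2 comparisons 56 moved and 921 did not. The median between 0 h and 24 h changed sign without 0 h replicate 1. With the replicate block, 47 were called higher between 24 h and 48 h, where 921 of 17499 genes were higher. Between 0 h and 48 h 18 were called higher with it, where 1595 of 17755 genes were. Between 0 h and 24 h it called 0 of the selected genes, where 3007 of 17592 genes were called in either direction. Same-numbered libraries correlated between -0.28 and 0.196 in their deviations and different-numbered ones between -0.392 and 0.38. Deviations from a mean of 3 libraries are tied to each other, so these values cannot show whether equal numbers mark paired libraries. Without TMM, scaled only to library size, the median log2 fold change over the genes tested was 0.12 for 24 h against 0 h, where 2742 genes were then higher and 2060 lower in place of 2002 and 2492, and 0.13 for 48 h against 0 h, where 3045 were higher and 2720 lower in place of 2310 and 3292. The cause of these changes was not tested. With 3 libraries a time, 1 library can decide a mean, and genes at a few CPM carry few counts.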
